A study of Homo sapiens with 12 samples.

Results

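The genes described here are 10 genes of AP-1 and of the immediate early response: FOS, FOSB, FOSL1, FOSL2, JUN, JUNB, JUND, EGR1, IER2 and IER3. They were chosen by symbol from the 60710 genes of the count table, through their Ensembl identifiers, and each matched 1 row. The cells were SH-SY5Y, an established human neuroblastoma line, in 4 groups of 3 libraries. One group received the solvent DMSO alone, and the others received HPPE, zinc protoporphyrin or tin protoporphyrin at 5 µM in DMSO. All groups were lysed after 5 h, and all carried the same 10 µL of DMSO in 2 mL of medium. Zinc and tin protoporphyrin are porphyrins that hold zinc or tin where heme holds iron. The name HPPE is not spelled out in the labels. The labels do not say whether replicates were separate cultures or wells of a single culture, so p-values measure the spread between these libraries, which may be technical.

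AP-1 is a dimeric transcription factor made of a JUN protein with a FOS protein, or of 2 JUN proteins, joined by leucine zippers. FOS and EGR1 are classic immediate early genes: growth factors and stress act through MAP kinases on factors already present in the cell, so their transcription starts without new protein synthesis and usually fades within hours. FOSL1 and FOSL2, which encode FRA1 and FRA2, respond more slowly and stay up longer, and FOSL1 is itself a known target of AP-1. In neurons these genes are widely used as marks of recent stimulation, and a single time point cannot show a peak that came before it.

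The stretches of DNA just before these genes are shown because control sites often lie there, and because the genes differed in their response. Sites farther from the start lie outside these windows, among them the known serum response element of FOS. RefSeq promoter windows (GRCh38.p14, 250 bases before to 50 after the start site) were on hand for 8 of the 10 genes, all but FOSL1 and IER3. In the lines that follow, each sequence runs 5′ to 3′ along the strand of the gene. Capitals mark CArG boxes, which bind serum response factor, the AP-1 site TGANTCA, the cyclic AMP response element TGACGTCA, its core TGACGT, and the variant TGACATCA.
EGR1 (chr5:138465229-138465478, plus strand, the 250 bases before the start site): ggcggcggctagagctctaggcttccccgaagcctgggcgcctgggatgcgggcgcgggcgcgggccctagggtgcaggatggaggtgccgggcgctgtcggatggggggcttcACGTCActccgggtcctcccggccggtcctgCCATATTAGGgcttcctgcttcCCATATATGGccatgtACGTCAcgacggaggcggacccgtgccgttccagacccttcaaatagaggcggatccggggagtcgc
FOS (chr14:75278752-75278781, plus strand): tggttgagcccgTGACGTttacactcattc
FOSB (chr19:45467924-45467953, plus strand): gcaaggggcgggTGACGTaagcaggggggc
FOSL2 (chr2:28392780-28392809, plus strand): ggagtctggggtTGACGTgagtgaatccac
FOSL2, second site (chr2:28392850-28392879, plus strand): gtgccattgtagTGACTCAtctcgggcaga
JUN (chr1:58784096-58784125, minus strand): aggccttggggTGACATCAtgggctatttt
JUND (chr19:18281805-18281834, minus strand): cggccgcccccaTGACGTCAacccacaagg

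The EGR1 window was the only 1 of the 8 with a CArG box, and it held 2, starting 105 and 83 bases before the start site (positions -105 and -83). CArG boxes occurred in 1.29% of all 35116 promoter windows of this length. The core TGACGT, read on both strands, was in 5 of the 8 windows (FOS, FOSB, FOSL2, JUND and EGR1) and in 7.98% of all windows. It is part of TGACGTCA, which was in JUND alone and in 1.85% of windows. The JUND window also held the core apart from that site, at position -87, in a stretch not printed above. The AP-1 site TGANTCA was in the FOSL2 window, starting at position 5 after the start site, and in 7.71% of all windows. TGACATCA was in the JUN window, at position -67, and in 2.61% of all windows. The EGR1-type site GCGGGGGCG was in 0 of the 8 windows and 5.07% of all. The core TGACNNNGC of the antioxidant response element was in the JUND window and 13.3% of all, and TATAAA was in FOS, FOSB and JUNB and 11.5% of all. These matches describe letters and were not tested as binding sites.

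The libraries held 1337028 to 9145399 counts, with DMSO replicate 3 and zinc protoporphyrin replicate 1 the shallowest. Noradrenergic markers of neuroblastoma summed to 5348 to 6159 CPM (counts per 1e6, with library sizes scaled by edgeR's TMM method) in every library. Among them TH was at most 0.25 CPM. Among pairs within a group, the counts of HPPE replicates 2 and 3 were closest, at a chi-square per degree of freedom of 1.11. Other pairs gave 1.49 to 17.3. Counting error alone gives values near 1, so these 2 HPPE libraries may not be independent. A fit with the 2 summed into 1 library is given in the closing part. Libraries also differed in a trend on transcript length. The Spearman correlation across genes between a library's deviation from the mean and length ran from -0.54 to 0.57. It averaged 0.06 ± 0.46 (SD, n = 3) in the control, -0.34 ± 0.21 with HPPE, 0.39 ± 0.17 with zinc protoporphyrin and -0.07 ± 0.54 with tin protoporphyrin. Its part in the results was not tested as a cause, and fold changes with this trend removed are given where they differ in call. Fewer cells with a given RNA and less RNA per cell cannot be told apart in such bulk samples.

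In the control cells the JUN family was far more abundant than the FOS family. Levels were compared between genes as CPM per kilobase of the longest transcript in GENCODE 29. JUND stood highest at 61.5 ± 4.81 CPM per kilobase (SD, n = 3), followed by JUNB at 16.4 ± 3.17, JUN at 12.1 ± 0.15, FOSL2 at 8.39 ± 1.37, IER2 at 7.73 ± 1.51 and EGR1 at 4.97 ± 1.19. FOSL1 at 1.72 ± 0.39 and FOS at 1.47 ± 0.53 came next, and FOSB (0.218 ± 0.136) and IER3 (0.131 ± 0.15) were near the limit of detection. The control libraries overlapped for 3 neighbouring pairs in this order, FOSL2 with IER2, FOSL1 with FOS, and FOSB with IER3. With the mean transcript length in place of the longest, FOSL2 moved to rank 3 and FOS ahead of FOSL1, so these orders rest on the isoform assumed. Of the 10 genes, 8 passed the filter on low counts, and each of those was above its cutoff of 1.27 CPM in all 12 libraries. FOSB and IER3 were above it in 2 libraries each and were not tested.

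**Figure D1:**
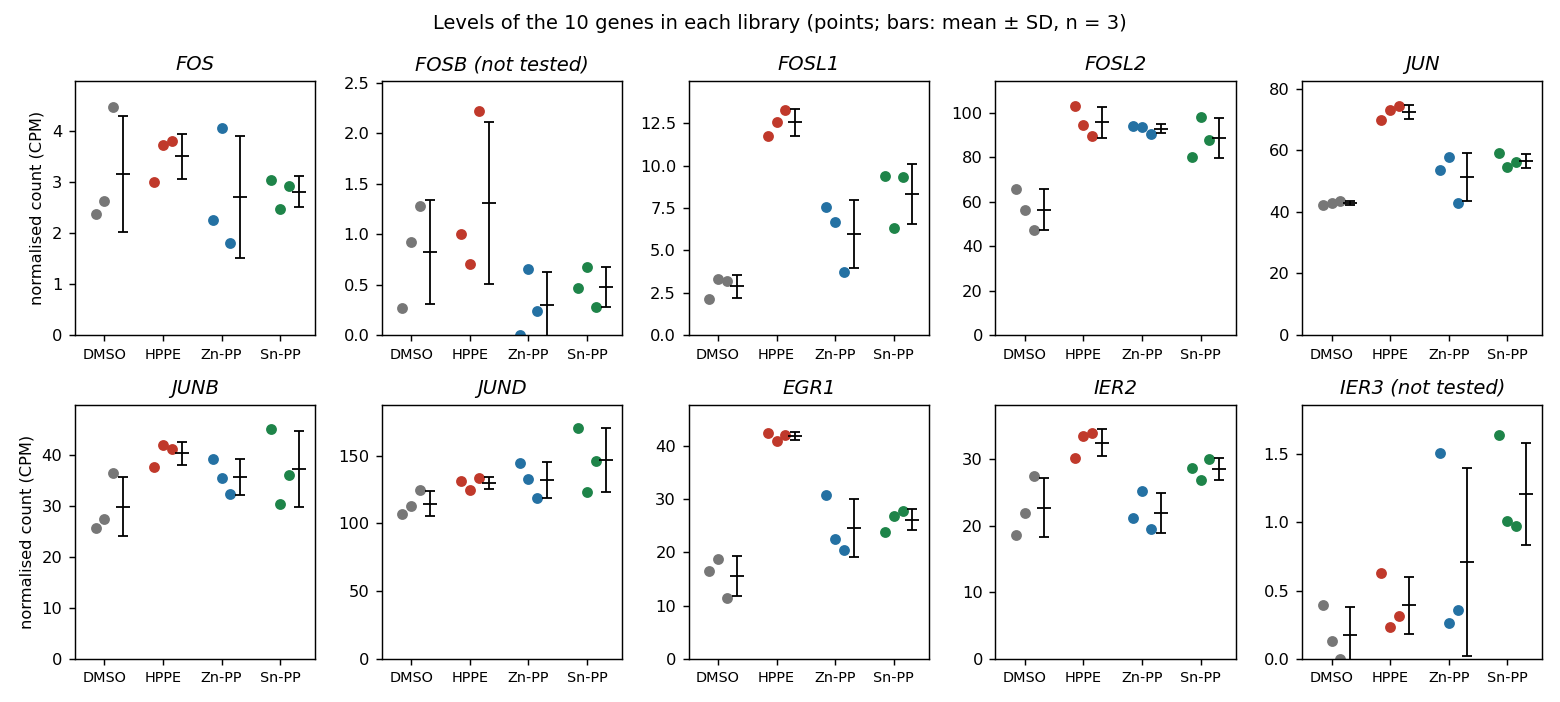
Normalised counts (CPM, vertical axes from 0) of the 10 genes in each of the 12 libraries, by group (Zn-PP and Sn-PP are zinc and tin protoporphyrin). Points are libraries, bars are mean ± SD of 3 libraries, and bar ends below 0 are not drawn; FOSL1, FOSL2, JUN and EGR1 lie above all control libraries with HPPE and tin protoporphyrin.

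Each compound was set against DMSO to ask which of these genes it changed. HPPE raised 5 of the 8 tested genes (FOSL1, FOSL2, JUN, EGR1 and IER2) and lowered 0. Across all 16366 genes tested, 2.57% were called higher with HPPE. Tin protoporphyrin raised 4 of the 8 (FOSL1, FOSL2, JUN and EGR1), against 1.9% of all genes. Zinc protoporphyrin raised 1 of the 8 (FOSL2), against 1.84% of all genes. Of all genes, 1.47% were called lower with HPPE, 0.415% with zinc protoporphyrin and 0.379% with tin protoporphyrin, but 0 of the 8. All 3 treated libraries lay above all 3 controls for 7 of the 8 with HPPE (11.9% of all genes), 3 with zinc protoporphyrin (11.6%) and 4 with tin protoporphyrin (10.3%). Calls are at an adjusted p under 0.05 in edgeR's quasi-likelihood test with Benjamini-Hochberg adjustment over all genes. No member was lower at an unadjusted p under 0.05 in any of these comparisons (0 of 8 in each), and DESeq2 also called 0 lower. At that unadjusted edgeR p, 6 of the 8 were higher with HPPE, 4 with zinc protoporphyrin and 7 with tin protoporphyrin. The share of all genes at that p is not given here. DESeq2 called 5, 1 and 3 of the 8 higher in the same order. The median log2 fold change of the 8 genes was 0.66 with HPPE, 0.27 with zinc protoporphyrin and 0.41 with tin protoporphyrin, beside 0.016, -0.004 and 0.009 over all genes tested. The 3 comparisons share the same 3 control libraries.

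**Figure D2:**
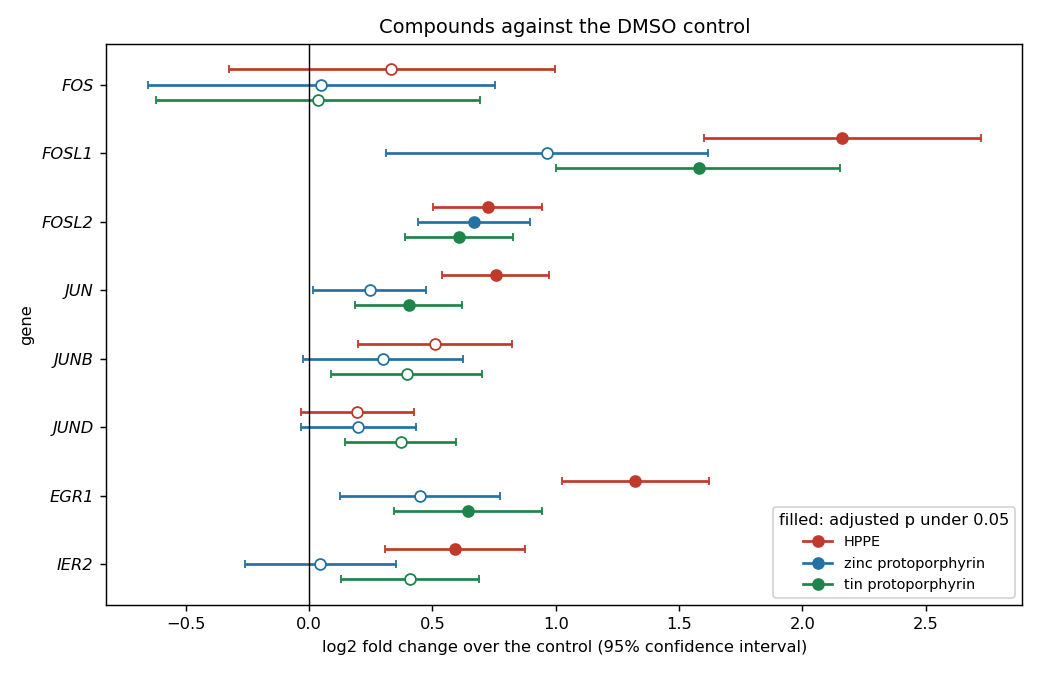
Log2 fold change over the DMSO control (horizontal axis, with 95% confidence intervals) of the 8 tested genes for each compound; filled points passed an adjusted p of 0.05. FOSL1 has the highest point for every compound, FOSL2 is filled for all 3 compounds, and every FOS interval spans 0.

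Among the FOS family, FOSL1 (chr11:65892049-65900573, minus strand, GRCh38, GENCODE 29) changed most. FRA1, its product, pairs with JUN proteins but lacks the strong activation domain of FOS. FOSL1 measured 2.12, 3.30 and 3.19 CPM in the control libraries, 11.8, 12.6 and 13.3 CPM with HPPE, 7.53, 6.67 and 3.73 CPM with zinc protoporphyrin and 9.38, 6.30 and 9.32 CPM with tin protoporphyrin. All 9 treated libraries were above all 3 controls, and the HPPE libraries were above every other library. The counts behind these values were 5 to 25 reads in the controls and 42 to 108 with HPPE. With HPPE the level was 4.48-fold the control (log2 fold change 2.16 ± 0.27 (SE), adjusted p 8.18e-05 by edgeR), which placed FOSL1 25th (rank 25) of 16366 genes by fold change. With tin protoporphyrin it was 2.99-fold (1.58 ± 0.27, adjusted p 0.00327), a call lost without DMSO control replicate 1 (adjusted p 0.0536). With zinc protoporphyrin the value was 1.95-fold (0.96 ± 0.31, adjusted p 0.109), not called, and called with the length and GC trend removed (1.03, adjusted p 0.0251).

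FOSL2, whose product FRA2 is another FOS protein without a strong activation domain, rose by similar amounts with all 3 compounds. It measured 65.6, 56.1 and 47.2 CPM in the controls, 102.9, 94.5 and 89.3 with HPPE, 94.1, 93.6 and 90.3 with zinc protoporphyrin and 79.9, 98.2 and 87.5 with tin protoporphyrin. No treated library overlapped the controls. The log2 fold changes were 0.72 ± 0.11 (SE) with HPPE, 0.67 ± 0.11 with zinc protoporphyrin and 0.61 ± 0.10 with tin protoporphyrin (edgeR adjusted p 0.000453, 0.00298 and 0.00298). It was the only tested member called with every compound. In a fit of the 2 groups alone the tin protoporphyrin call was lost (adjusted p 0.071).

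FOS itself, the founding member of the family and the usual marker of acute stimulation, was low and showed no detectable change at this depth. Its libraries held 2.38, 2.64 and 4.47 CPM in the control, 3.0, 3.73 and 3.80 with HPPE, 2.26, 4.06 and 1.80 with zinc protoporphyrin and 3.05, 2.47 and 2.92 with tin protoporphyrin. All 4 groups overlapped. The highest control value came from the shallow replicate 3, where it rested on 7 reads. The log2 fold changes were 0.33 with HPPE (95% confidence interval -0.33 to 0.995), 0.05 with zinc protoporphyrin (-0.65 to 0.75) and 0.04 with tin protoporphyrin (-0.62 to 0.69), so a change of up to 1.99-fold with HPPE lay within the interval. FOSB, which is induced by repeated neuronal stimulation, had 0 to 8 reads per library. The sums over 3 libraries were 11 reads in the control, 21 with HPPE, 7 with zinc protoporphyrin and 12 with tin protoporphyrin. Each counting interval of its ratio to the control included 1, as for HPPE at 1.62 (0.745 to 3.71).

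In the JUN family only JUN was called. JUN, the subunit that forms the most active dimers with FOS proteins, was tightly measured in the controls at 42.3, 42.9 and 43.4 CPM. It stood at 69.9, 72.9 and 74.4 CPM with HPPE, 59.0, 54.6 and 56.2 with tin protoporphyrin, and 53.5, 57.7 and 42.7 with zinc protoporphyrin. The HPPE and tin protoporphyrin libraries did not overlap the controls or each other, whereas zinc protoporphyrin replicate 3 fell among the controls. JUN rose 1.69-fold with HPPE (log2 fold change 0.76 ± 0.10 (SE), edgeR adjusted p 0.000237). The rise with tin protoporphyrin was 1.32-fold (0.40 ± 0.10, adjusted p 0.0467). This call was close to the threshold and was lost in 10 of its 18 alternative fits (adjusted p up to 0.201). The value with zinc protoporphyrin, 0.25 ± 0.11, was not called (adjusted p 0.234).

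JUNB, a JUN protein that often restrains JUN, measured 25.7, 27.3 and 36.4 CPM in the controls and 37.6, 41.9 and 41.2 with HPPE. All 3 HPPE libraries were above the controls, but the log2 fold change of 0.51 ± 0.15 (SE) missed the threshold (edgeR adjusted p 0.0613), and 6 of 18 alternative fits called it. One of these removed the length and GC trend (0.39, adjusted p 0.0111). JUNB values with zinc protoporphyrin (0.30, adjusted p 0.301) and tin protoporphyrin (0.40, adjusted p 0.197) were not called. With the trend removed the zinc protoporphyrin value was called as well (0.39, adjusted p 0.0191). The exons of JUNB overlap those of HOOK2 on the opposite strand over 14.2% of their length, and reads there cannot be assigned without strand.

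JUND, which many resting cells express steadily, measured 106.9, 112.5 and 124.4 CPM in the controls. It ran from 124.9 to 133.6 CPM with HPPE, 118.5 to 144.6 with zinc protoporphyrin and 123.2 to 170.4 with tin protoporphyrin. The tin protoporphyrin libraries spread widely. The one with 170.4 CPM (replicate 1) was also the one with the most negative length correlation, -0.54. The one with 123.2 CPM (replicate 2) had a length correlation of 0.52. The 3 log2 fold changes of JUND over the control were 0.20 ± 0.11 (SE), 0.20 ± 0.11 and 0.37 ± 0.11 in the same order. None was called (edgeR adjusted p 0.37, 0.344 and 0.0884). With the length and GC trend removed they were 0.09, 0.29 and 0.24, and the zinc and tin protoporphyrin values passed the threshold (adjusted p 0.00518 and 0.0167). In all, 4 of 18 alternative fits called the tin protoporphyrin value. Among them was the fit without tin protoporphyrin replicate 2 (0.48, edgeR adjusted p 0.00525). JUND has the most GC-rich longest transcript of the 10 genes, at 69.7%.

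EGR1 encodes a zinc finger transcription factor, and with HPPE and tin protoporphyrin its fold change was next after that of FOSL1. It measured 16.5, 18.7 and 11.5 CPM in the controls, 42.5, 41.0 and 42.1 with HPPE, 30.9, 22.5 and 20.5 with zinc protoporphyrin and 23.9, 26.9 and 27.7 with tin protoporphyrin. All treated libraries were above the controls, and the HPPE libraries were set apart from all others. EGR1 rose 2.5-fold with HPPE (log2 fold change 1.32 ± 0.14 (SE), edgeR adjusted p 1.77e-05) and was called in all 18 alternative fits. It rose 1.56-fold with tin protoporphyrin (0.64 ± 0.14, adjusted p 0.0218), a call that 4 of 18 fits lost, among them those without DMSO control replicate 1 and without tin protoporphyrin replicate 3 (adjusted p up to 0.117). With zinc protoporphyrin it was 0.45 ± 0.15 and not called (adjusted p 0.131).

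IER2 and IER3 are early response genes that do not encode AP-1 subunits. IER2 measured 18.7, 21.9 and 27.4 CPM in the controls, 30.1, 33.4 and 33.9 with HPPE, 21.1, 25.3 and 19.5 with zinc protoporphyrin and 28.6, 26.9 and 30.1 with tin protoporphyrin. Only the HPPE libraries were clear of the controls. The log2 fold change with HPPE was 0.59 ± 0.14 (SE, edgeR adjusted p 0.0177), and 5 of 18 fits lost the call. These were the fits without DMSO control replicate 1 or 2 and without HPPE replicate 2 or 3 (adjusted p up to 0.196). The other summed HPPE replicates 2 and 3 into 1 library (0.58, adjusted p 0.0578). An antisense gene overlaps 30.8% of the IER2 exons. IER3 held 3, 1 and 0 reads in the controls and 14, 9 and 7 with tin protoporphyrin. The ratio of their summed counts was 5.09, with a 95% counting interval of 1.79 to 19.9 that leaves out the spread between libraries. When all genes with a count were kept in the fit, its log2 fold change of 2.26 ± 0.71 was not called (edgeR adjusted p 0.0893). With HPPE (8 reads in all) and zinc protoporphyrin (7 reads) the counting intervals included 1. IER3 shares 26.5% of its exons with the antisense gene IER3-AS1.

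The compounds were then set against each other at the same dose and time, in 3 pairs for each of the 8 genes. HPPE gave higher levels than zinc protoporphyrin in 4 of the 8 (FOSL1, JUN, EGR1 and IER2) and lower levels in 0, when 6.44% of all genes were called higher and 6.26% lower. The same 4 genes were those with all HPPE libraries above all zinc protoporphyrin libraries, which held for 19% of all genes. Those 4 differences were 1.20 ± 0.23 (SE), 0.51 ± 0.10, 0.87 ± 0.14 and 0.55 ± 0.13 on the log2 scale (edgeR adjusted p 0.00746, 0.00826, 0.00152 and 0.0199). Without HPPE replicate 2, FOSL1 and EGR1 were called, while JUN (0.50) and IER2 (0.51) kept similar values and missed the threshold. Without zinc protoporphyrin replicate 3, EGR1 was called, and FOSL1 was 0.86, JUN 0.36 and IER2 0.42. Calls over all genes fell in these fits too, from 2078 to 187 and 173. With the length and GC trend removed, the values were 0.98, 0.44, 0.79 and 0.40, and all 4 were called. In that fit JUND was also called lower with HPPE (-0.20, adjusted p 0.0265), beside -0.004 without the correction (95% confidence interval from -0.23). FOSL2 differed by 0.06, with a 95% confidence interval of -0.16 to 0.27.

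HPPE gave higher levels than tin protoporphyrin in 1 of the 8, EGR1 (0.68 ± 0.13 (SE), edgeR adjusted p 0.00806), against 0.745% of all genes, and lower levels in 0, against 0.709%. All HPPE libraries were above all tin protoporphyrin libraries for 4 of the 8 (9.81% of all genes). This call was lost without HPPE replicate 2 (0.69, adjusted p 0.0515), where calls over all genes fell from 238 to 91. JUN, FOSL1 and IER2 were above the tin protoporphyrin libraries in every HPPE library without being called. Their differences were 0.35 (95% confidence interval 0.15 to 0.55, edgeR adjusted p 0.0861), 0.58 (0.16 to 1.01, adjusted p 0.201) and 0.18 (from -0.08, adjusted p 0.554). JUN was called with the length and GC trend removed (0.35, adjusted p 0.015).

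The 2 protoporphyrins differ in the metal at their centre, and none of the 8 genes was called between them. By edgeR 0 were called in either direction, 2 (FOSL1 and IER2) were lower with zinc at an unadjusted p under 0.05, and DESeq2 called 0. Across all genes 0.00611% were called higher and 0% lower. For 0 of the 8, and 6.56% of all genes, the zinc protoporphyrin libraries were all above those with tin. For 1 of the 8, IER2, they were all below, a direction for which the share of all genes was not counted. The log2 differences, zinc over tin, were -0.61 for FOSL1 (95% confidence interval -1.12 to -0.11), -0.36 for IER2 (-0.64 to -0.08), -0.19 for EGR1 (-0.49 to 0.10) and -0.16 for JUN (-0.37 to 0.06). The intervals for FOSL2 (-0.15 to 0.27), JUNB (-0.39 to 0.20), JUND (-0.40 to 0.05) and FOS (-0.63 to 0.66) included 0. The FOSL1 difference was called without tin protoporphyrin replicate 2 (-0.79, adjusted p 0.0406), a fit in which 1453 of all genes were called, against 1 with every library. These intervals do not show that the 2 metals act alike.

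**Figure D3:**
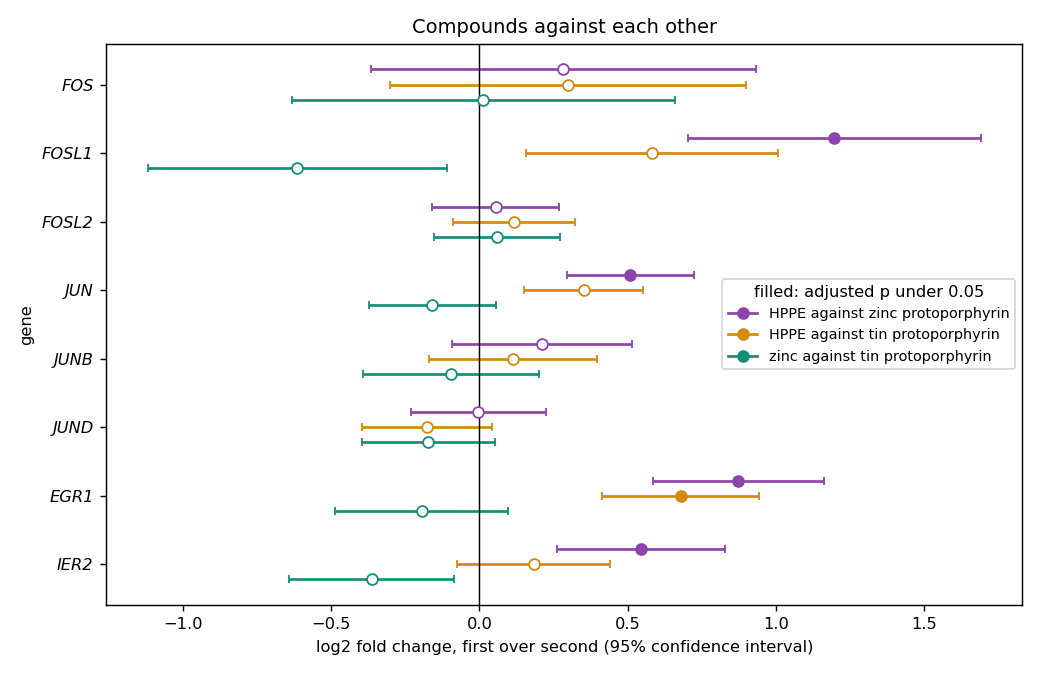
Log2 fold change between compounds (horizontal axis, first named over second, with 95% confidence intervals) of the 8 tested genes; filled points passed an adjusted p of 0.05. FOSL1, JUN, EGR1 and IER2 are filled for HPPE against zinc protoporphyrin, EGR1 alone for HPPE against tin protoporphyrin, and none for zinc against tin protoporphyrin.

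Because the members of a family compete for dimer partners, the make-up of each family was described per library from CPM per kilobase, without a test. The summed FOS family level was 11.8 ± 0.43 in the control (SD, n = 3), 23.7 ± 0.27 with HPPE, 18.7 ± 1.85 with zinc protoporphyrin and 19.6 ± 0.51 with tin protoporphyrin. FOSL2 was the largest part in every group, from 60.0% ± 3.74 with HPPE to 74.2% ± 6.1 with zinc protoporphyrin, and 70.9% ± 9.03 in the control. FOSL1 made up 14.6% ± 3.7 of the family in the control (10.4 to 16.8%) and 31.7% ± 2.23 with HPPE (29.3 to 33.7%), with no overlap. It made up 18.8% ± 4.89 with zinc protoporphyrin (13.5 to 23.0%), which overlapped the control, and 25.5% ± 5.56 with tin protoporphyrin (19.1 to 29.5%), which did not. FOS was 12.5% ± 4.97 of the family in the control and 6.59 to 6.86% on average with the compounds. The FOSL2 share with HPPE (56.3 to 63.8%) overlapped the control (62 to 80%). The JUN family changed by fewer percentage points in its make-up. With HPPE, JUND (60.6 to 63.6%) and JUN (17.8 to 18.6%) still did not overlap the control (67.4 to 69% and 12.4 to 14.3%). JUND held 68.4% ± 0.84 in the control, 62.1% ± 1.5 with HPPE, 67.5% ± 0.84 with zinc protoporphyrin and 68.3% ± 0.83 with tin protoporphyrin, and JUN held 13.5% ± 1.02, 18.2% ± 0.41, 13.8% ± 1.25 and 14.0% ± 1.59. With mean transcript lengths the share of FOSL1 was 10.8% in the control and 24.8% with HPPE.

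**Figure D4:**
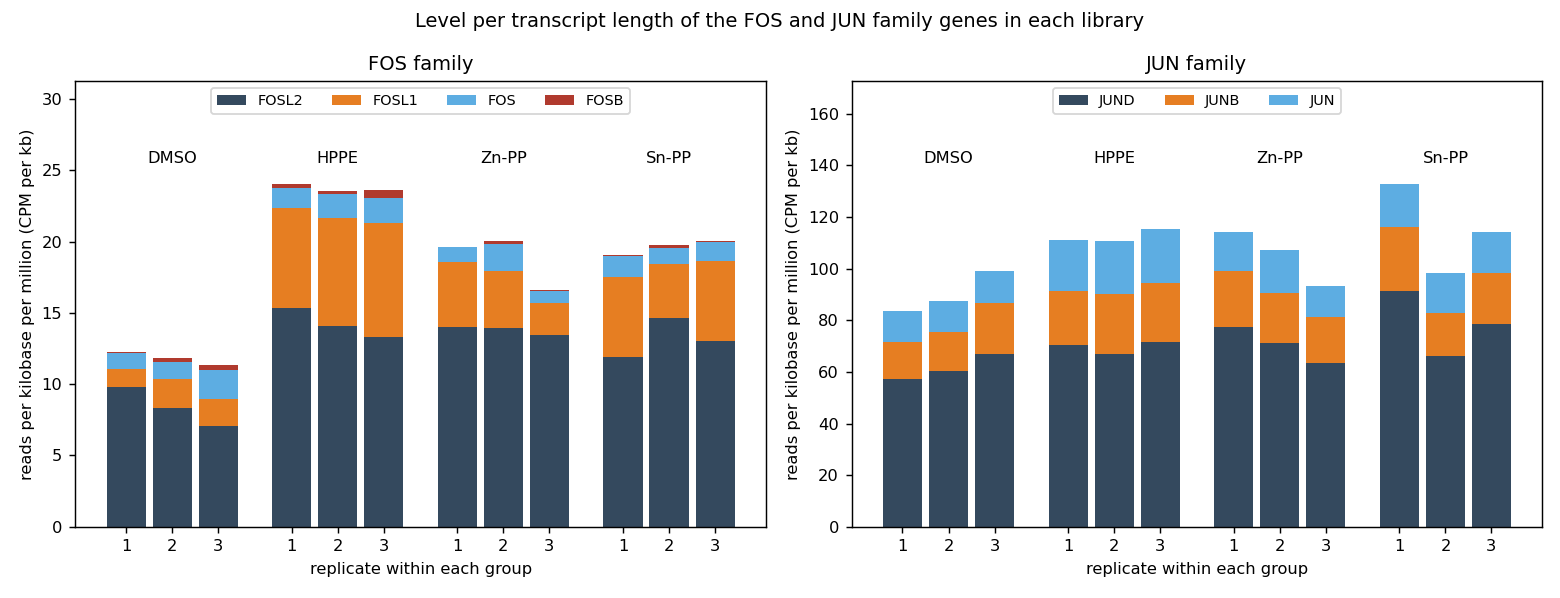
Level per transcript length (CPM per kilobase of the longest transcript, vertical axes from 0) of the FOS family (left) and the JUN family (right), stacked by gene, in each of the 12 libraries. FOSL2 and JUND form the largest part of every bar, and the FOSL1 part is widest in the 3 HPPE libraries.

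The wider early response was read from a list of 32 other immediate early genes, 26 of them tested. HPPE raised 11 and lowered 1 (TRIB1), tin protoporphyrin raised 8 and lowered 0, and zinc protoporphyrin raised 5 and lowered 0. Over all genes tested, 2.57%, 1.9% and 1.84% were called higher in that order. The median log2 fold changes of the 26 genes were 0.64, 0.28 and 0.17, beside 0.016, 0.009 and -0.004 over all genes. Genes raised by all 3 compounds included KLF6, a zinc finger factor, with log2 fold changes of 0.91 with HPPE, 0.78 with zinc protoporphyrin and 0.94 with tin protoporphyrin (edgeR adjusted p at most 4.62e-05). The kinase gene SGK1 rose by 1.20, 0.61 and 0.74, and the polo-like kinase gene PLK2 by 1.10, 0.64 and 0.73. CCN1, which encodes a secreted matrix protein, rose from 21.2 ± 2.2 CPM (SD, n = 3) to 68.5 ± 9.65 with HPPE, 36.0 ± 3.35 with zinc protoporphyrin and 50.5 ± 9.76 with tin protoporphyrin. CSRNP1, which encodes a nuclear protein rich in cysteine and serine, was called with HPPE (1.27) and tin protoporphyrin (0.96).

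ZFP36 encodes tristetraprolin, which binds AU-rich elements and speeds the decay of early response mRNAs. It rose from 5.31 ± 1.33 CPM (SD, n = 3) to 13.9 ± 1.24 CPM with HPPE (log2 fold change 1.39 ± 0.25 (SE), edgeR adjusted p 0.00297) and was 6.07 ± 1.28 with zinc and 6.71 ± 2.51 with tin protoporphyrin. The direct differences were 1.34 ± 0.25 for HPPE against zinc protoporphyrin (adjusted p 0.00518) and 1.09 ± 0.22 for HPPE against tin protoporphyrin (adjusted p 0.0149).

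**Figure D5:**
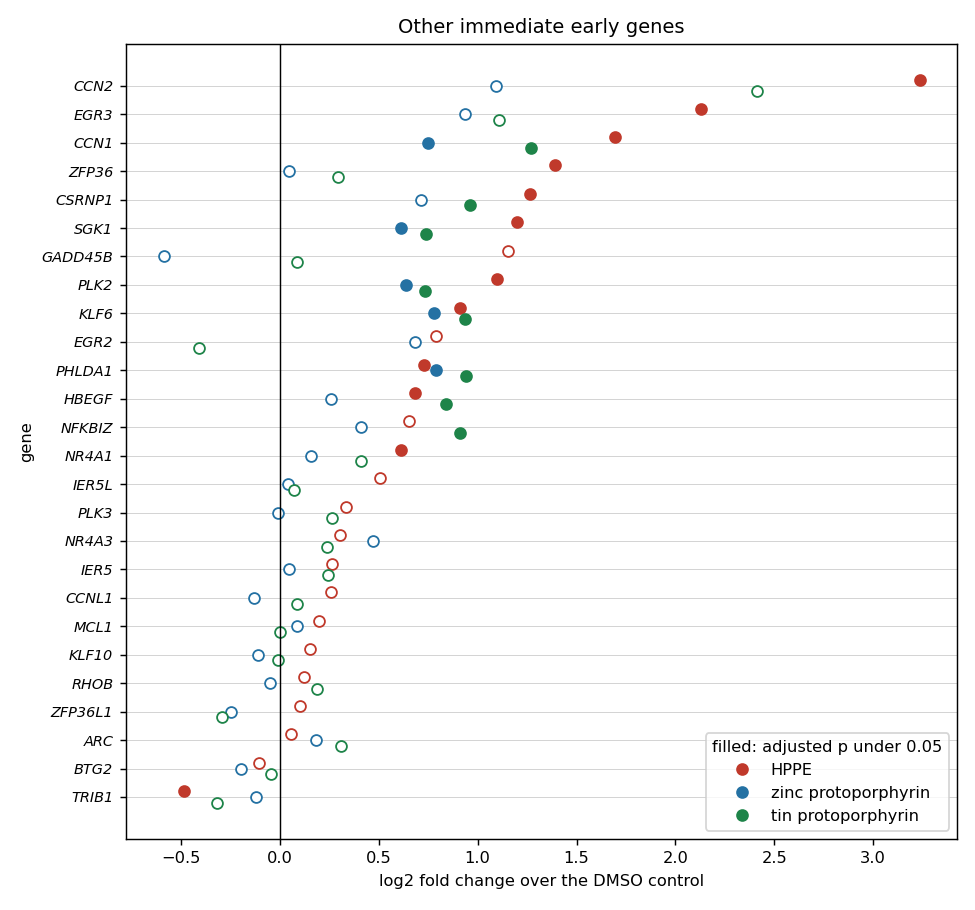
Log2 fold change over the DMSO control (horizontal axis) of 26 other immediate early genes, ordered by their value with HPPE; filled points passed an adjusted p of 0.05. KLF6, SGK1, PLK2, CCN1 and PHLDA1 are filled for all 3 compounds, and TRIB1 is the 1 gene filled below 0.

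Among 12 other leucine zipper genes whose products can pair within or around AP-1, 9 were tested. Of these, 1 was called higher with HPPE and 0 with zinc or tin protoporphyrin, where 1.84 to 2.57% of all genes were. Against the control MAFG alone was called: it encodes a small MAF protein that is also a partner of NRF2, and it rose with HPPE (0.45 ± 0.08 (SE), edgeR adjusted p 0.00185). MAFG with HPPE also exceeded its level with zinc (0.53, adjusted p 0.000897) and tin protoporphyrin (0.45, adjusted p 0.00297). Of the 9, 1 was called higher with HPPE than with zinc protoporphyrin, beside 6.44% of all genes. Against tin protoporphyrin 2 were, beside 0.745% of all genes. The stress gene ATF3 was not called with any compound (0.22 to 0.30, adjusted p 0.629 to 0.693). Of 21 genes for the upstream kinases and transcription factors, all tested, 1 was called higher with each compound, as were 1.84 to 2.57% of all genes. This was ELK3, an ETS factor that binds beside serum response factor (0.35, 0.31 and 0.33). With HPPE 1 of the 21 was called lower, as were 1.47% of all genes. RPS6KA2, an ERK-activated kinase gene, fell with HPPE (-0.30, adjusted p 0.0348) and was lower than with zinc (-0.42) or tin protoporphyrin (-0.35), and no other was called against the control. SRF itself was not called (-0.08, -0.05 and 0.12).

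Of 20 genes known as AP-1 targets in other cells, 11 were tested, and against the control 2 were called higher with each compound, where 1.84 to 2.57% of all genes were. CD44, a surface glycoprotein gene and one of these, rose by 0.69 with HPPE, 0.53 with zinc protoporphyrin and 0.72 with tin protoporphyrin (edgeR adjusted p 0.000147, 0.00509 and 0.000118). HPPE was 0.16 over zinc protoporphyrin (adjusted p 0.221) and -0.03 against tin protoporphyrin (adjusted p 0.902). Between HPPE and zinc protoporphyrin 3 of the 11 were called higher, beside 6.44% of all genes, among them PLAUR (0.68, adjusted p 0.0241) and TIMP1 (0.76, adjusted p 0.03). The matrix metalloprotease genes MMP1, MMP3, MMP10 and MMP13 did not pass the filter.

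Neuroblastoma cells can take a noradrenergic or a mesenchymal state, and markers of both were read beside the early genes. The 11 tested noradrenergic markers had median log2 fold changes of -0.08 with HPPE, -0.09 with zinc protoporphyrin and -0.08 with tin protoporphyrin. With each compound 2 of the 11 were above 0, beside 49.5 to 52.3% of all genes. With HPPE 0 were called higher and 1 lower, beside 1.47% of all genes called lower. With zinc or tin protoporphyrin 0 were called either way. The summed noradrenergic list ran from 5938 to 6159 CPM in the control, 5729 to 5759 with HPPE, 5348 to 5884 with zinc protoporphyrin and 5692 to 5799 with tin protoporphyrin, so the treated libraries were all below the controls. Of 10 tested mesenchymal markers, 3 were called higher with HPPE, 1 with zinc protoporphyrin and 1 with tin protoporphyrin. Over all genes 2.57%, 1.84% and 1.9% were. CD44 was called with every compound, and SNAI2 (0.64) and WWTR1 (0.80) with HPPE. COL3A1 was called lower with zinc protoporphyrin (-0.32), as were 0.415% of all genes. With HPPE, TWIST1 (0.03), FN1 (0.09), COL1A1 (-0.04) and NOTCH2 (-0.18) were among those not called. The summed mesenchymal list ran from 1566 to 1652 CPM in the control, 1661 to 1684 with HPPE, 1507 to 1729 with zinc protoporphyrin and 1750 to 1759 with tin protoporphyrin. The HPPE and tin protoporphyrin sums were above all controls, with HPPE narrowly (1661 beside 1652 CPM). The largest parts of the HPPE sum were FN1, TWIST1 and VIM (means of 520.2, 342.5 and 245.4 CPM). These genes were not called with any compound. Sums of other gene lists of this size were not compared. PRRX1, a defining factor of the mesenchymal state, had 1 read over the 3 HPPE libraries. It had no count in the control, zinc or tin protoporphyrin libraries. The part of these markers in the early gene changes was not tested.

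The genes most like FOSL1 in pattern were sought among 11934 genes at 5 CPM or more, by Pearson correlation of log2 CPM over the 12 libraries, as a description. They were CCN1 (r = 0.975), CSRP1 (0.968) and KHDRBS3 (0.967). For EGR1 they were LYN (0.957) and FAM83G (0.952). For FOS they were PPP1R11 (0.912), MRPL35 (0.906) and ECHDC1 (0.905), whose group means differ little, such as 47.1 CPM for MRPL35 in the control and 49.1 with HPPE. Among the members, FOSL1 followed JUN (0.95) and EGR1 (0.89). FOS had its highest values with IER2 (0.70), JUNB (0.48) and JUN (0.45). Lower values were found with FOSL1 (0.34), JUND (0.21), EGR1 (0.04) and FOSL2 (-0.22). The FOS values rest on 3 to 32 reads a library. All these values share the 12 libraries, their depth and their length trend.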

How the data were processed

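The authors deposited whole-number read counts per Ensembl gene that are not normalized. Per the submitters' processing notes, fastp 0.21.1, STAR 2.7.7a, featureCounts and GRCh38 were used; the annotation release and the strand setting are not given in the sources used here, so reads from overlapping genes cannot be assigned. Of 60710 identifiers, 60481 matched a symbol.

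The tests ran on the deposited counts with edgeR 4.0.16 in R 4.3.3. filterByExpr by group left 16366 genes (99.6% of counts). Library sizes were scaled by TMM. A robust quasi-likelihood model, with 1 mean for each group, took in the 12 libraries. P-values are two-sided and called under 0.05 after Benjamini-Hochberg adjustment across every tested gene. Standard errors come from the F statistic. The biological coefficient of variation was 0.0913. The floor of detection was 3 counts, 0.337 to 2.26 CPM by library. Counting intervals (95%, exact) cover counting error only. The model was also run on counts simulated from a shared profile without the length trend. That run cannot vouch for the calls in these libraries.

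All 10 members are named. From each other list, the named genes are those called against the control in at least 1 comparison, at most 6 a list, except that some results are not reported here; genes outside this rule (ATF3, SRF, TH, the metalloproteases, PRRX1, PHLDA1, TRIB1, PLAUR, TIMP1) were named after their values were seen. The members and lists were chosen with earlier results of these data known. Lengths and GC content came from GENCODE 29 (98.9% of tested genes), which need not be the authors' annotation.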

Additional observations from a re-analysis of the deposited data

How the results depend on the processing

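Each of the 8 tested genes was refitted under 18 alternatives per comparison. Of 864 fold changes, 774 kept direction and side of the threshold, 29 lost a call, 30 gained one and 31 turned sign; the cause was not tested. FOSL1, FOSL2, JUN and EGR1 with HPPE against the control kept their calls in all 18. The fit without DMSO control replicate 3 and zinc protoporphyrin replicate 1 was chosen after seeing the data.

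Leaving out each library in turn, the number of genes called ran from 4 to 6 for HPPE against the control (5 with all libraries), 1 to 1 for zinc protoporphyrin (1), 1 to 6 for tin protoporphyrin (4), 1 to 4 for HPPE against zinc protoporphyrin (4), and 0 to 1 both for HPPE (1) and for zinc protoporphyrin (0) when set against tin protoporphyrin. For tin protoporphyrin against the control it was 1 without DMSO control replicate 1 and 2 without tin protoporphyrin replicate 3, where calls over all genes fell as well, from 373 to 164 and 189. The count for zinc protoporphyrin against the control was 2 without the filter and 4 with the length and GC correction, and that for HPPE against tin protoporphyrin was 2 with this correction. Tin protoporphyrin against the control gave 1 in a fit of the 2 groups alone (131 calls over all genes). With the main axis of spread within groups as a covariate, the counts were 5 for zinc and 7 for tin protoporphyrin against the control, and, against tin protoporphyrin, 4 with HPPE and 3 with zinc; by construction its scores sum to 0 in each group. In these 4 fits 4154, 2207, 2594 and 2349 of all genes were called, against 369, 373, 238 and 1, so the calls under this axis may be too many.

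With the replicate number as a block, the count for tin protoporphyrin was 2 (FOSL1 and FOSL2) and the other 5 comparisons kept their counts. Correlations of the deviations of same-numbered libraries ran from -0.68 to 0.52. In no comparison were all 3 over 0.1, so the numbers were not taken to pair the samples.

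The values that turned sign were all of uncalled differences. FOS with zinc protoporphyrin against the control was -0.0093 by DESeq2, -0.015 with the axis, -0.099 without DMSO control replicate 1 and -0.54 without zinc protoporphyrin replicate 2, and IER2 was -0.09 and -0.11 without those libraries. FOS with tin protoporphyrin was -0.019 by DESeq2, -0.11 with the axis, -0.031 with the length and GC correction, -0.11 and -0.0082 without DMSO control replicates 1 and 2, and -0.024 without tin protoporphyrin replicate 1. For HPPE against zinc protoporphyrin, JUND was 0.02 without the filter, 0.029 with unscaled library sizes, 0.021 without HPPE replicate 2, 0.044 and 0.012 without zinc protoporphyrin replicates 1 and 2, and 0.043 without both shallow libraries. In that comparison JUNB was -0.0069 with the correction, FOSL2 -0.0033 without HPPE replicate 1 and FOS -0.11 without zinc protoporphyrin replicate 3. JUNB for HPPE against tin protoporphyrin was -0.016 without tin protoporphyrin replicate 2. For zinc against tin protoporphyrin, FOS was -0.015 without the filter, -0.033 with unscaled sizes, -0.029 with the replicate block, -0.57 without zinc protoporphyrin replicate 2 and -0.071 without tin protoporphyrin replicate 2. There JUNB was 0.13 and JUND 0.058 with the correction, and FOSL2 was -0.015 and JUNB 0.063 without tin protoporphyrin replicate 1. Leaving out single libraries, these values ran from -0.54 to 0.44 (FOS) and -0.11 to 0.17 (IER2) for zinc protoporphyrin against the control, and from -0.11 to 0.16 (FOS) for tin protoporphyrin. They ran from -0.11 to 0.87 (FOS), -0.0033 to 0.1 (FOSL2) and -0.08 to 0.044 (JUND) for HPPE against zinc protoporphyrin, and from -0.016 to 0.28 (JUNB) for HPPE against tin protoporphyrin. For zinc against tin protoporphyrin they ran from -0.57 to 0.4 (FOS), -0.015 to 0.15 (FOSL2) and -0.23 to 0.063 (JUNB). Depth limits FOS, FOSB and IER3 most, at 0 to 32 reads a library.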
